A study of Mus musculus with 4 samples.

Results

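Complement is a cascade of plasma and tissue proteins that marks particles, microbes and dying cells for uptake. Most of it is made in the liver, but macrophages make part of it themselves, above all C1q, the recognition molecule that starts the classical pathway. C3 is the protein on which all routes of activation meet. Factor B is the protease of the alternative pathway, properdin holds that pathway's C3-cleaving enzyme together, and the fragments C3a and C5a act on myeloid cells through their receptors. The genes described here were C1qa, C1qb and C1qc (the 3 chains of C1q), C3, Cfb (factor B), Cfp (properdin), C3ar1 (the C3a receptor) and C5ar1 (the main C5a receptor). These 8 genes were taken by name from the 28692 rows of a table of transcript counts in single cells of the mouse colon, and all 8 were found.

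The cells came from the colon lamina propria of 4 male C57/Bl6N mice, and all were sorted for CD11b together with Ly6C or CD64, a gate for monocytes and macrophages. The mice DEP 11 and DEP 13 had been gavaged with 12 µg of diesel exhaust particles (DEP) in 200 µL of phosphate-buffered saline (PBS) over roughly 6 months, 5 days a week, and PBS 2 and PBS 3 with PBS alone. Each mouse gave 1 library of 3' end counts, in which a unique molecular identifier (UMI) stands for 1 captured RNA molecule and a barcode for 1 droplet. Of 6954 barcodes, the 4771 with at least 1000 UMIs were used: 1296 in PBS 2, 1582 in PBS 3, 1218 in DEP 11 and 675 in DEP 13. With 2 mice a group, p-values rest on the spread between very few animals.

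Ly6c2 encodes the Ly6C surface protein of blood monocytes, which replace gut macrophages throughout life and lose Ly6C as they mature in the tissue. To order the barcodes by Ly6c2 without favouring the deeper ones, each was thinned at random to 1000 UMIs and put into class 0, 1 or 2+ by the Ly6c2 UMIs that were left. Class 0 held 4072 barcodes, class 1 held 505, and class 2+ held 194, with 57 from DEP 11, 16 from DEP 13, 66 from PBS 2 and 55 from PBS 3. Median depth before thinning was 5986.5 UMIs in class 0 and 4949.5 in class 2+. The classes are ranges of 1 noisy count and not cell types: 108 of the 194 barcodes of class 2+ held exactly 2 thinned UMIs, and only 100 of them fell in it again under another random draw. Levels are given in CPM, the UMIs of a gene per 1000000 UMIs in the summed barcodes of a mouse.

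The sort was checked against marker genes in 10 clusters that had been built without any complement gene and numbered by size. Cluster 2, with 624 barcodes, was led by Ifitm6, Chil3 and Ly6c2 and is called monocyte-like. Cluster 7 (265 barcodes) was T cell-like, with the B cell genes Ebf1 and Ly6d among its leading genes, and cluster 10 (93 barcodes) was plasma cell-like, so 358 barcodes in all carried lymphoid markers. Of these, 7 lay in class 2+. The 7 other clusters had no 3 markers of a type among their leading genes and stay unnamed. One of them, cluster 3, was led by the heat shock genes Dnajb1 and Hspb1 and drew 419 of its 620 barcodes from PBS 3. The 10 plasma cell genes took 14061 to 44323 CPM in the 4 libraries and none of them was at 0. Of the barcode names, 36 occurred in more than 1 library.

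All 8 genes lie on the minus strand of mm10 (positions from GENCODE M21). C1qb (chr4:136880129-136886187), C1qc (chr4:136889804-136893065) and C1qa (chr4:136895917-136898803) follow each other on chromosome 4 within a single cluster. Cfb (chr17:34856374-34862518) lies on chromosome 17 inside the span of Gm20547, a protein-coding gene on the same strand, so its counts are uncertain. C3 (chr17:57203970-57228136) is on the same chromosome, C3ar1 (chr6:122847138-122856161) and C5ar1 (chr7:16246743-16259540) are on chromosomes 6 and 7, and Cfp (chrX:20925454-20931555) is on the X chromosome.

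The 250 bases before the RefSeq start site are shown for C1qb and C3, because these genes moved in opposite directions with Ly6c2. RefSeq windows (GRCm38.p6) were found for 6 of the 8 genes. Capitals mark every match, on either strand, to GAGGAA (the core of PU.1 sites), TGCTGA (a word bound by Maf factors), TTNNGCAA (C/EBP), GAAANNGAA (interferon response) or the NF-kB consensus.
C1qb, chr4:136886201-136886450, minus strand: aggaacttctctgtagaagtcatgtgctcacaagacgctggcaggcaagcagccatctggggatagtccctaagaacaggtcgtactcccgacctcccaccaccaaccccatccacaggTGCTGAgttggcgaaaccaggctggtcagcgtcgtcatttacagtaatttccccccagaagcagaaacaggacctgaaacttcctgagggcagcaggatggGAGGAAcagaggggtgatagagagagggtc
C3, chr17:57228137-57228386, minus strand: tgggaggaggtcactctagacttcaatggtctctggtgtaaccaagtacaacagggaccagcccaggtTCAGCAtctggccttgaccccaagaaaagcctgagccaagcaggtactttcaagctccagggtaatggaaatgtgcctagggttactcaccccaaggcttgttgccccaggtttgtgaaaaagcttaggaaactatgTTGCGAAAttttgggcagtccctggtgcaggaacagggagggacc
In C1qb the capitals are a Maf word at -131 to -126 and a PU.1 core at -30 to -25, counted from the start site. In C3 they are a Maf word on the other strand at -182 to -177 and a C/EBP match on the other strand at -45 to -38. Such short words are frequent: of 32851 mouse windows of the same length, 23.3% held the PU.1 core, 16.1% the Maf word, 9.56% the C/EBP word, 7.13% the interferon word and 3.90% the NF-kB consensus. The C1qc window held a PU.1 core and an NF-kB match, that of C3ar1 a Maf word, that of C5ar1 a Maf word and an interferon word, and that of Cfp none of these words. A match is a description of the letters and not a site of binding.

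The C1q genes were 4.36 to 4.72-fold lower in class 2+ than in class 0, and lower in each of the 4 mice. In class 0, C1qa stood at 4913 CPM in PBS 2, 3928 in PBS 3, 4733 in DEP 11 and 4072 in DEP 13. In class 2+, C1qa stood at 1202 in PBS 2, 1251 in PBS 3, 773.1 in DEP 11 and 773.1 in DEP 13. The classes did not overlap. The log2 fold change of class 2+ against class 0 was -2.15 (SE 0.11, adjusted p = 2.71e-23), from the quasi-likelihood test of edgeR, fitted to all genes with the mouse as a block.

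C1qb and C1qc followed. C1qb was at 4898 to 5394 CPM in class 0 and at 726.9 to 1517 in class 2+, a log2 fold change of -2.12 (SE 0.10, adjusted p = 1.50e-23 by edgeR). C1qc was at 2622 to 3666 in class 0 and at 392.3 to 840.1 in class 2+, a log2 fold change of -2.24 (SE 0.11, adjusted p = 4.45e-24 by edgeR). DEP 13, with the fewest barcodes in class 2+, gave the lowest values of both. Class 1 lay between the classes for all 3 chains in each of the 4 mice, as the plot of levels by class shows.

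**Figure D1:**
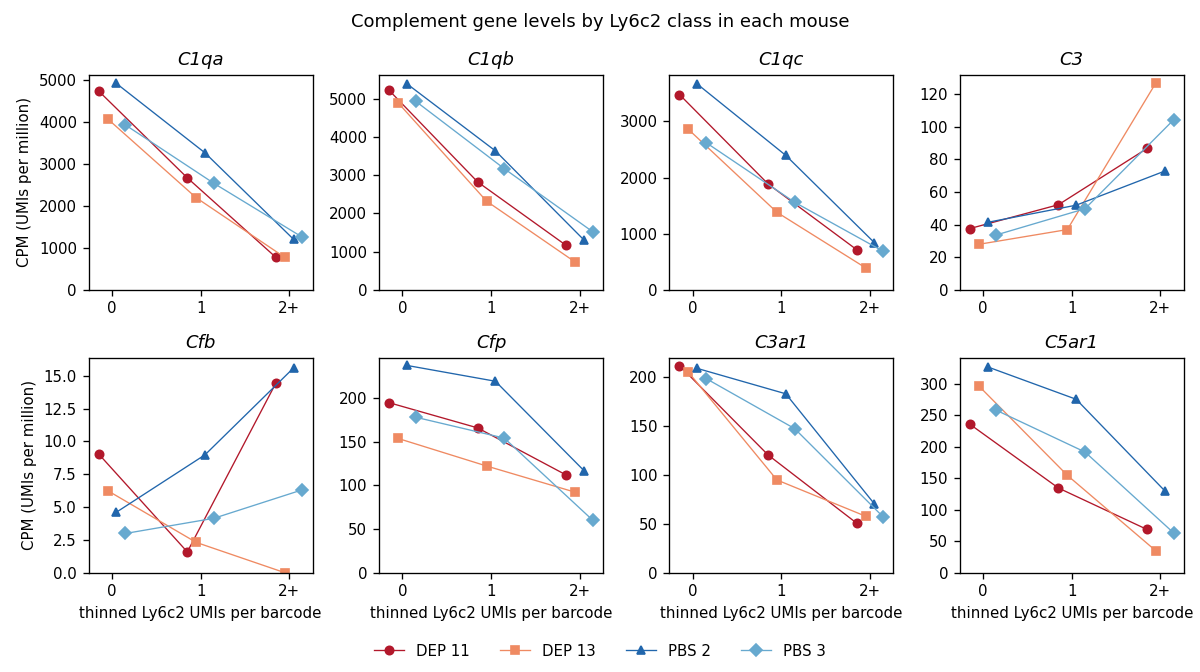
Each panel plots 1 gene, with the Ly6c2 class of the barcodes (0, 1 or 2+ Ly6c2 UMIs after thinning to 1000 UMIs) on the x axis and CPM on the y axis; each line joins the 3 sums of 1 mouse. C1qa fell from between 3928 and 4913 in class 0 to between 773.1 and 1251 in class 2+, C3 went up in all 4 mice, and Cfb rests on few UMIs.

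C3 went the other way and was higher in class 2+ in every mouse. It stood at 41.4 CPM in PBS 2, 33.7 in PBS 3, 37.6 in DEP 11 and 27.9 in DEP 13 in class 0, and at 72.8, 104.3, 86.7 and 126.9 in the same mice in class 2+. The log2 fold change was 1.35 (SE 0.20, adjusted p = 6.33e-07 by edgeR). Only 96 C3 UMIs were counted in class 2+, 11 of them in DEP 13. Without the lymphoid clusters the log2 fold change of C3 was 1.42.

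Cfp, C3ar1 and C5ar1 fell with Ly6c2. Cfp was at 154.0 to 237.8 CPM in class 0 and at 60.0 to 117.0 in class 2+ (log2 fold change -1.04, SE 0.15, adjusted p = 4.69e-07 by edgeR). The receptor gene C3ar1 was at 198.3 to 211.5 in class 0, with hardly any spread between mice, and at 50.6 to 70.2 in class 2+ (log2 fold change -1.76, SE 0.17, adjusted p = 2.00e-12 by edgeR). C5ar1 was at 235.8 to 327.0 in class 0 and at 34.6 to 130.0 in class 2+ (log2 fold change -1.73, SE 0.16, adjusted p = 5.86e-13 by edgeR). No class 2+ value of these 3 genes reached the lowest class 0 value. With classes set by the unthinned Ly6c2 UMIs per 10000 UMIs, the log2 fold change of Cfp was -0.60, and with another random draw it was -0.63. For C3ar1 it was -2.58 in barcodes thinned to 1000 UMIs and -1.18 with another random draw, and it passed in both.

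Cfb was scarce throughout, with 174 UMIs in all 4771 barcodes, and it did not pass the filter on low values in any comparison. In class 0 it was at 4.61 CPM in PBS 2, 2.99 in PBS 3, 9.04 in DEP 11 and 6.25 in DEP 13. In class 2+ it was at 14.4 in DEP 11, 15.6 in PBS 2 and 6.32 in PBS 3, on 12 UMIs in all, and no UMI was found in DEP 13, where 3 counts would be 34.6 CPM. Without the gene filter its log2 fold change was 0.92 (adjusted p = 0.53 by edgeR), so no change was called. The ratio of class 2+ to class 0 in CPM was 2.09, with an exact 95% counting interval of 1.06 to 3.77. That interval leaves out the spread between mice.

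Of the 7 members that passed the filter, 1 was called higher and 6 lower in class 2+. Over all 6630 genes tested, 7.77% were called higher and 7.33% lower. The median log2 fold change was -1.76 over the 7 members and -0.04 over all genes. As a check of the classes, Cd81 and Mrc1, surface proteins of tissue macrophages, went from 1462 to 295.9 and from 164.9 to 46.0 CPM between class 0 and class 2+, and Ccr2, the monocyte chemokine receptor, from 426.1 to 627.5.

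Of 44 other complement genes found in the table (the proteases, terminal components, regulators and receptors outside the 8), only 10 passed the filter on low values, Itgax, Cd93, C5ar2 and Lrp1 among them. Of the 10, 1 was called higher in class 2+, 3 lower, and 6 did not pass the test. Itgax, the alpha chain of complement receptor 4, was at 81.0 to 107.2 CPM in class 0 and at 10.4 to 28.4 in class 2+ (log2 fold change -2.39, adjusted p = 7.56e-10 by edgeR). Cd93, a surface protein once described as a C1q receptor, fell by 1.21 on the log2 scale (adjusted p = 5.07e-06 by edgeR), and did not pass in barcodes thinned to 1000 UMIs (adjusted p = 0.116). C5ar2, the second C5a receptor, was called lower, but it had 1 UMI in class 2+ against 310 in class 0, a ratio of 0.083 in CPM with an exact 95% counting interval of 0.0021 to 0.464, and without DEP 11 it did not pass (adjusted p = 0.053 by edgeR). Lrp1, an uptake receptor for many ligands, was the gene called higher (log2 fold change 0.55, adjusted p = 0.032 by edgeR), with 43.7 to 74.8 CPM in class 0 and 50.6 to 126.9 in class 2+. Within each of the 4 mice Lrp1 was higher in class 2+, from 61.4 to 126.4 in DEP 11 but only from 74.8 to 83.2 in PBS 2. Across mice the classes overlapped for Lrp1, and under the alternatives its adjusted p ranged from 0.011 to 0.858. The median over the 10 genes was -0.12.

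Free RNA in a suspension can be captured along with a cell, so C1q RNA of C1q-rich macrophages can reach barcodes of cells that do not make it. The plasma cell-like cluster 10 and the 1614 barcodes under 500 UMIs served as the comparison. The 3 chains together took 3969 CPM in cluster 10, with 4691 in PBS 2, 3808 in PBS 3, 3955 in DEP 11 and 3816 in DEP 13. They took 3905 in the barcodes under 500 UMIs, 3078 in class 2+, 2599 in the monocyte-like cluster 2 and 12781 in class 0. The C1q level of class 2+ was no higher than in cluster 10 or in the barcodes under 500 UMIs. The T cell-like cluster 7 was not part of this comparison. Its means over the mice were 2516, 3061 and 1621 CPM for C1qa, C1qb and C1qc, against 1432, 1635 and 1000 in cluster 10. The level of free C1q RNA thus depends on the barcodes taken for it.

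The same held barcode by barcode. The 90th percentile of the plasma cell-like cluster was 73.9 C1q UMIs per 10000, and 63.1% of class 0 barcodes lay above it, against 29.9% of class 1 and 3.61% of class 2+ (7 barcodes). The median was 122.0 per 10000 in class 0, 32.1 in class 1, 24.2 in class 2+ and 32.0 in cluster 10. Class 0 had a second, lower mode over the range of cluster 10, as did class 1, which the plot of C1q in single barcodes shows. Class 0 therefore held barcodes with and without C1q above that range, and 54.2% of the barcodes of the monocyte-like cluster were in class 0.

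**Figure D2:**
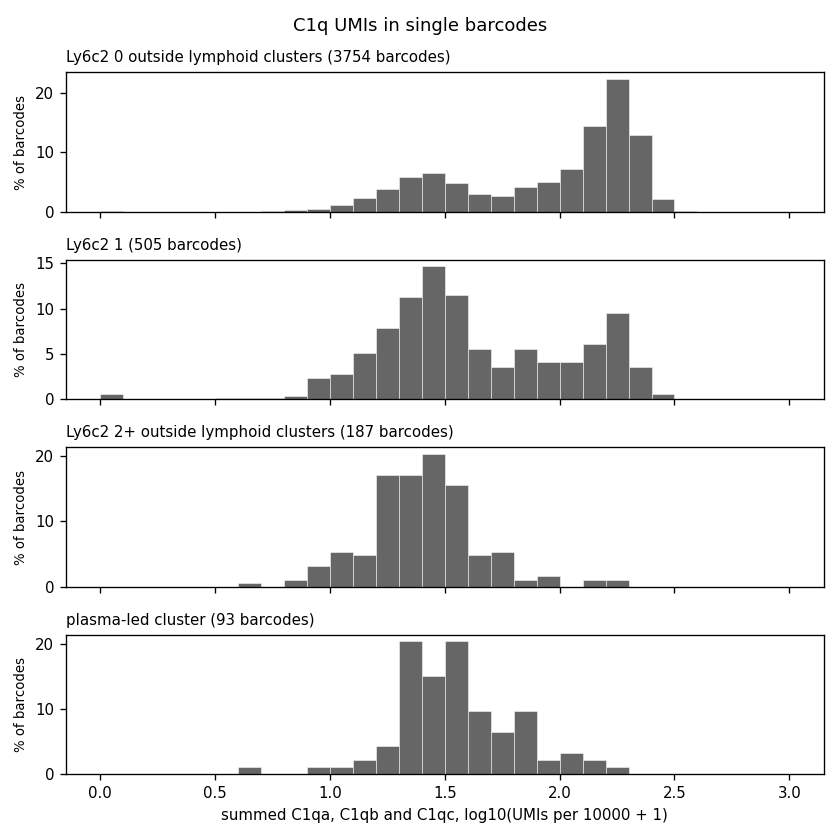
Histograms of the summed C1qa, C1qb and C1qc UMIs of single barcodes, as log10 of UMIs per 10000 plus 1 on the x axis and the percent of barcodes on the y axis, for class 0 and class 2+ without the lymphoid clusters, class 1 and the plasma cell-like cluster (plasma-led in its panel title). Class 0 (3754 barcodes) has a high and a low mode, and class 2+ (187 barcodes) covers the range of the plasma cell-like cluster (93 barcodes).

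The proportions of the chains hardly moved between these groups. C1qa, C1qb and C1qc made up 34.8%, 40.2% and 24.9% of C1q UMIs in class 0, 34.8%, 41.7% and 23.6% in class 2+, and 35.5%, 40.9% and 23.6% in the plasma cell-like cluster. Relative to Apoe, an abundant macrophage transcript, C1q was 43.9% in class 0, 41.9% in cluster 10 and 25.9% in class 2+. In class 2+ Apoe itself was at 11893 CPM against 29144 in class 0.

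The other members were set against the same cluster in thinned barcodes, where every barcode has equal depth. A C1qa UMI was found in 62.9% of class 2+ (95% exact interval 55.7 to 69.7%) and 77.4% of cluster 10 (67.6 to 85.4%), against 86.1% of class 0. Cfp was found in 7.22% of class 2+ and 10.8% of cluster 10, C3ar1 in 3.61% and 7.53%, and C5ar1 in 9.28% and 12.9%. All 4 shares in class 2+ were at or below those of the plasma cell-like cluster, so no expression in class 2+ is read from them. The part of free RNA in them was not tested. Unthinned, C1qa was found in 96.9% of class 2+ and 100% of cluster 10, whose median depths were 4949.5 and 19711 UMIs.

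C3 did not follow that pattern. It was found in 9.79% of thinned class 2+ barcodes (6.00 to 14.9%) and in 0 of 93 plasma cell-like barcodes. Taking 3 barcodes as the limit of a count of 0 allows a share of up to 3.23% there. Thinning sets an equal depth but not an equal part of free RNA. Before it, cluster 10 had a median of 19711 UMIs and class 2+ one of 4949.5. In CPM, C3 was at 90.2 in class 2+, 81.1 in the monocyte-like cluster and 12.8 in cluster 10. In the T cell-like cluster 7 it was at 35.9 to 65.4 in the single mice, with a mean of 52.8. It was, however, at 110.2 in the barcodes under 500 UMIs (52 UMIs), above its level in class 2+. Whether free C3 RNA has a part in the class difference was not tested. Cfb had no UMI in those barcodes, which allows up to 6.36 CPM. These intervals cover counting error only.

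Across the clusters the C1q genes split the barcodes into high and low. C1qb stood at 5559 to 7812 CPM in clusters 3, 4, 5, 6 and 8 in the single mice, and at 692.1 to 3139 in clusters 1, 2, 9 and 10. Cluster 5, led by the chemokines Ccl8, Ccl7 and Ccl12, had the highest mean of C1qa, 6379 ± 847 (SD, n = 4 mice), and cluster 2 the lowest, 907.4 ± 266.3. Neighbours among the 5 high clusters did not differ beyond their spread between mice. The mean of the T cell-like cluster 7, 2516 ± 579 for C1qa, lay between those of the high and the low clusters, at a median of only 1847 UMIs a barcode, but its PBS mice fell within the range of the low clusters.

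**Figure D3:**
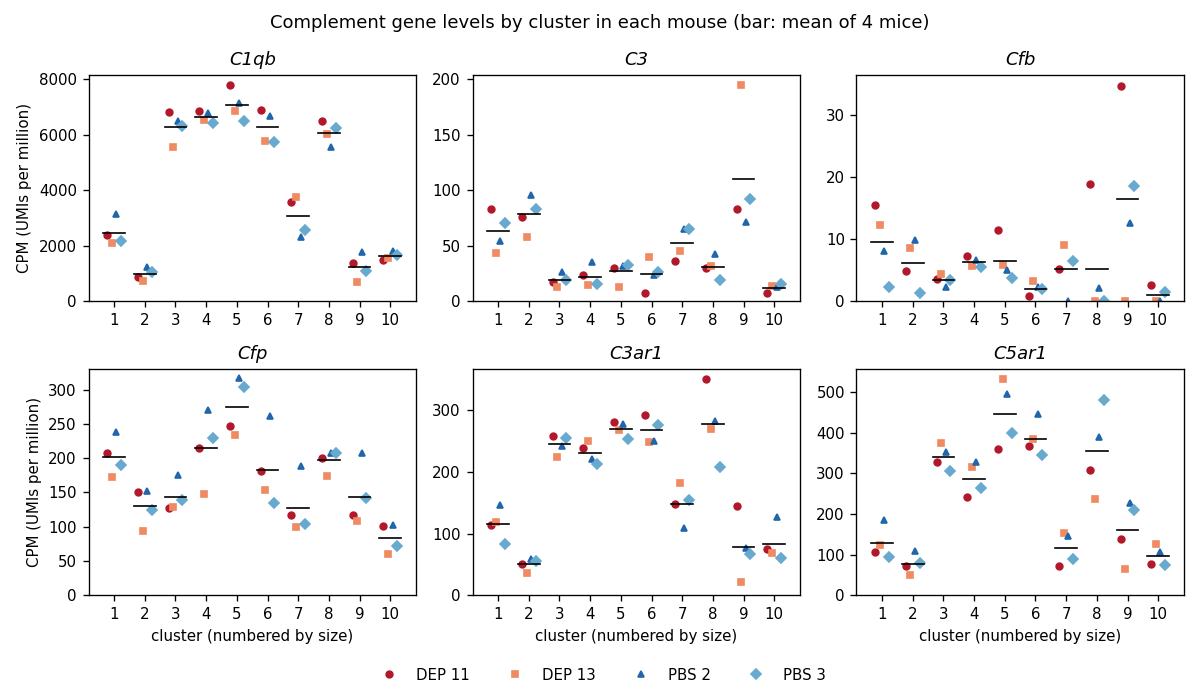
CPM of 6 genes on the y axis in 10 clusters on the x axis; each point is 1 mouse and each bar the mean of the 4 mice. C1qb, C3ar1 and C5ar1 are high in clusters 3, 4, 5, 6 and 8, C3 is highest in clusters 9 and 2, and Cfp peaks in cluster 5.

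C3 had nearly the reverse order. Its mean was highest in cluster 9 (110.4 ± 56.8 CPM, SD, n = 4), a cluster led by the acute-phase gene Saa3 and interferon-induced genes such as Ifit1 and Isg15, and the value of 194.7 in DEP 13 there rests on 9 UMIs. It was followed by the monocyte-like cluster 2 (78.2 ± 16.0) and cluster 1 (63.0 ± 17.4), whose leading genes were Cd209a, Ccl5 and Ly6i. The neighbours in this order did not differ beyond their spread. In the 5 C1q-high clusters the means of C3 ran from 19.2 to 30.7.

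C3ar1 and C5ar1 had the C1q-high clusters on top. C3ar1 ran from 50.6 ± 9.92 CPM in cluster 2 to 277.7 ± 58.6 in cluster 8, and the neighbours among its top 5 clusters did not differ beyond their spread. C5ar1 was highest in cluster 5 (447.1 ± 80.1) and lowest in cluster 2 (77.7 ± 25.2). Cfp was also highest in cluster 5 (275.0 ± 41.1), but cluster 1, low in C1q, stood at 201.8 ± 28.0 and so near the C1q-high clusters 4 and 8. Cfb was highest in cluster 9 (16.4 ± 14.4), on 15 UMIs.

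Likeness was described over 37 sums of a mouse and a cluster with at least 20 barcodes each, which share libraries and depth, so no p is given. The genes most like the C1q mean were Ms4a7 (r = 0.97), Cd81 (r = 0.97) and Cd72 (r = 0.97), all membrane proteins. C3ar1 was most like Cxcl16 (r = 0.96), Gatm (r = 0.96) and C1qb (r = 0.96), and C5ar1 most like Lgmn (r = 0.91), Fth1 (r = 0.90) and Lpcat2 (r = 0.89). Those of C3 were Rpl18 (r = 0.84), Ifi27l2a (r = 0.83) and Samhd1 (r = 0.83), the last of them a host restriction factor against viruses. Those of Cfp were Ctsd (r = 0.85), Clta (r = 0.81) and Pdia3 (r = 0.80), and those of Cfb, at its few UMIs, were Tcp1 (r = 0.71), Psme2b (r = 0.71) and Med7 (r = 0.69). Among the members themselves, the C1q mean went with C3ar1 (r = 0.95) and C5ar1 (r = 0.86), and against C3 (r = -0.62).

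The comparison of DEP with PBS asks whether long oral exposure to the particles changed complement in these cells. In all barcodes together no member was called. C1qa was at 4405 CPM in DEP 11 and 3820 in DEP 13, against 4607 in PBS 2 and 3701 in PBS 3, and the groups overlapped (log2 fold change -0.01, SE 0.15). C5ar1 was at 314.3 and 245.0 after PBS alone and at 220.8 and 277.5 after DEP (log2 fold change -0.15, SE 0.18). The log2 fold change was -0.04 (SE 0.13) for C1qb, 0.01 (SE 0.17) for C1qc, -0.17 (SE 0.17) for C3 and 0.0028 (SE 0.14) for C3ar1. Cfp had the largest difference of the 7 tested, with 231.3 and 172.0 after PBS alone and 189.4 and 149.6 after DEP (log2 fold change -0.24, SE 0.17, adjusted p = 0.997 by edgeR). Without 1 mouse the log2 fold change ran from -0.39 to -0.07 for Cfp and from -0.36 to -0.03 for C3.

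The count was 0 of 7 members, and 0% of all 6609 genes were called by edgeR's quasi-likelihood test. An unadjusted p under 0.05 was reached by 171 genes, DESeq2 called 4 and limma voom 0. The median log2 fold change was -0.04 over the 7 members and -0.01 over all genes. None of the 7 members had its DEP mice both above or both below the PBS mice, as 26.6% of all genes had. Cfb, which did not pass the filter, had both DEP mice above both PBS mice. It was at 5.47 and 3.21 CPM after PBS alone and at 8.60 and 5.74 after DEP. Without the filter its log2 fold change was 0.72 (adjusted p = 0.966 by edgeR), and with filterByExpr it was 0.74.

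Class 0 gave the same picture, since it holds most barcodes. No member was called, and 0% of 6663 genes (172 at an unadjusted p under 0.05, 4 with DESeq2, 0 with limma voom). The log2 fold changes of the C1q chains lay between -0.02 and 0.02, and those of C3, Cfp, C3ar1 and C5ar1 between -0.24 and 0.04. None of the 7 members that passed the filter had its groups apart, against 27.9% of all genes. Cfb, which did not pass it, had both DEP mice above both PBS mice, at 9.04 and 6.25 CPM against 4.61 and 2.99 (log2 fold change 1.01, adjusted p = 0.268 by edgeR without the filter).

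The share of barcodes with a UMI was compared between the mice as well, and no such comparison of 2 against 2 mice can go below a two-sided exact permutation p of 0.333. In thinned barcodes C1qb was found in 81.7% and 81.5% after DEP and in 88.3% and 86.6% after PBS alone, so the groups did not overlap. C1qa was found in 80.5% and 81.2% against 87.3% and 84.1%, again apart, while C1qc, Cfp, C3, C3ar1 and C5ar1 overlapped. Cfb was apart in the other direction, with 0.985% and 0.444% after DEP and 0.386% and 0.190% after PBS alone, on few barcodes. Of the 7 members that passed the gene filter 2 were apart, against 29.4% of the 6609 genes tested. Unthinned, C1qb was found in 96.4% and 97.0% after DEP and in 99.2% and 98.4% after PBS alone. The makeup of the libraries moved with these shares: the lymphoid clusters held 7.88% and 12.7% of barcodes after DEP and 5.63% and 6.51% after PBS alone, and the monocyte-like cluster, low in C1q, held 15.5% and 14.2% against 12.7% and 11.1%. Without the lymphoid clusters alone the thinned shares of C1qa were still apart, at 81.0% and 81.8% against 88.1% and 84.5%. Without the lymphoid and the monocyte-like clusters they overlapped, at 87.4% and 88.6% against 90.7% and 87.0%. Those of C1qb were apart in both, at 89.1% and 88.8% against 92.0% and 90.7% in the latter. There C3ar1 was apart in the other direction, at 20.8% and 19.9% after DEP and 19.3% and 15.6% after PBS alone, and so was Cfb. The summed level of C1qb did not separate the groups. Leaving out these clusters was chosen after seeing the data, and whether makeup has a part in the shares was not tested.

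In class 2+ no member passed the test between DEP and PBS. C1qa was at 773.1 CPM in DEP 11 and 773.1 in DEP 13, against 1202 in PBS 2 and 1251 in PBS 3 (log2 fold change -0.77, SE 0.22, adjusted p = 0.630 by edgeR). C1qb was at 1160 and 726.9 against 1303 and 1517 (log2 fold change -0.67, SE 0.23, adjusted p = 0.999 by edgeR). C1qc overlapped, with 715.3 and 392.3 against 840.1 and 685.6 (log2 fold change -0.51, SE 0.25). C5ar1 overlapped too, with 68.6 and 34.6 against 130.0 and 63.2, and its log2 fold change of -0.84 (SE 0.44) ran from -1.51 without DEP 11 to -0.35 without PBS 2. The log2 fold change was -0.38 (SE 0.45) for C3ar1, 0.07 (SE 0.40) for C3 and 0.14 (SE 0.39) for Cfp, with overlapping groups. Cfb, with 12 UMIs there, had a log2 fold change of -0.23 without the filter (adjusted p = 0.986 by edgeR). Both C1qa and C1qb had their groups apart, 2 of 7 members, against 30.4% of 5835 genes. No member was called, against 0.0857% of all genes, which were the 5 genes Igha, Iglc2, Hspa1a, Hsp90aa1 and Dnajb1, all lower in the DEP mice. The median log2 fold change was -0.51 over the 7 members and -0.04 over all genes.

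**Figure D4:**
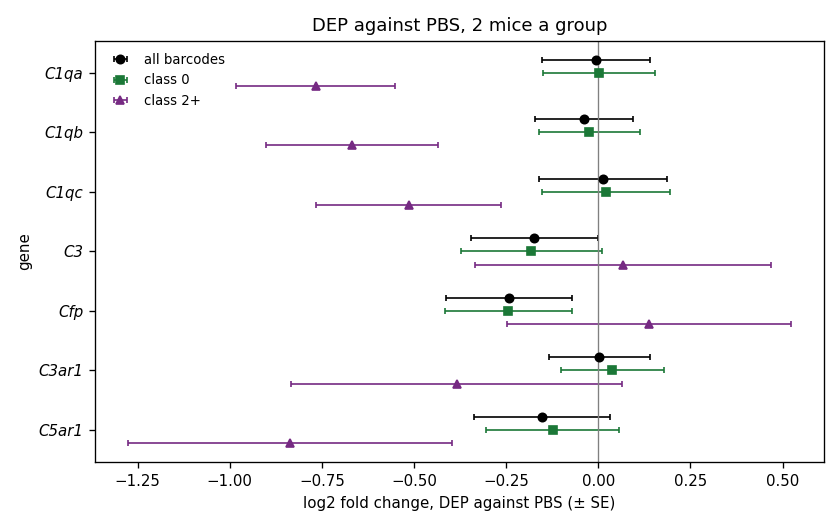
Log2 fold change of DEP against PBS (x axis) for the 7 members that passed the filter (y axis), in all barcodes, class 0 and class 2+; points are edgeR estimates over 2 mice a group and bars are 1 SE. C1qa, C1qb and C1qc sit near 0 in all barcodes and class 0 and between -0.77 and -0.51 in class 2+.

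Tested directly, the DEP difference was lower in class 2+ than in class 0 for C1qa (log2 difference -0.82, SE 0.17, adjusted p = 0.00147 by edgeR) and C1qb (log2 difference -0.69, SE 0.17, adjusted p = 0.0208 by edgeR), but C1qc did not pass (log2 difference -0.61, adjusted p = 0.221 by edgeR). That was 2 of 7 members, against 0.226% of 6630 genes. Without 1 mouse the log2 difference ran from -1.04 to -0.60 for C1qa, from -1.03 to -0.42 for C1qb and from -0.99 to -0.38 for C1qc. With another random draw for the classes the C1qa difference was -0.32 and the C1qb difference -0.29, and neither passed (adjusted p = 0.9998 by edgeR for both). DESeq2 (adjusted p = 0.739 for C1qa) and limma voom (0.992) called neither, nor did edgeR without PBS 2 or without PBS 3. Without the lymphoid clusters C1qa still passed (log2 difference -0.82, adjusted p = 0.0105 by edgeR), and C1qb did not (-0.57, adjusted p = 0.253 by edgeR).

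Other values moved with this difference. Among the 15 genes called were 6 antibody genes (Igha, Iglc1, Iglc2, Iglc3, Igkc and Jchain), 3 genes with the opposite sign (Ly6d, Hspb1 and Ly6a), and Apoe, which in class 2+ stood at 10689 and 7477 CPM after DEP and 15332 and 9978 after PBS alone. Summed C1q in the barcodes under 500 UMIs was also lower in the DEP mice, 3529 and 2936 CPM against 4855 and 3953, and in the monocyte-like cluster it was 2250 and 1788 against 3369 and 2551. In the plasma cell-like cluster the groups overlapped. The T cell-like cluster 7 went the other way: C1qa was at 3040 and 2986 CPM after DEP and at 2106 and 1932 after PBS alone, C1qb at 3593 and 3768 against 2317 and 2565, and C1qc at 2091 and 1845 against 1663 and 885.2. The part of free RNA in the class 2+ difference was not tested.

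The other members did not pass the test of this dependence on class. The log2 difference was 0.16 (SE 0.39) for C3, 0.32 (SE 0.34) for Cfp, -0.46 (SE 0.41) for C3ar1 and -0.62 (SE 0.36) for C5ar1, and -1.30 for Cfb without the filter. That of C5ar1 was -1.66 without DEP 11 and -0.27 without PBS 2, and that of C3ar1 was -2.09 in barcodes thinned to 1000 UMIs and 0.55 with another random draw. Of the 10 other complement genes tested, none was called between DEP and PBS in all barcodes, in class 0 or in the interaction, and none of the 9 tested in class 2+.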

How the data were processed

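Colon lamina propria cells of 2 DEP and 2 PBS mice had been sorted together in 1 batch and run as 1 library a mouse. The deposited values are raw UMI counts per gene and barcode, made by the authors with Cell Ranger and STAR 2.6.1a on mm10 (Ensembl annotation) and merged without downsampling. The table goes down to 101 UMIs a barcode; a cell filter like the study's leaves 4623 barcodes, several times the number the study kept, for a reason not stated, so these barcodes may not be the same cells. Totals per library ran from 4489342 to 10293703 UMIs, so DEP 13 is the least precise.

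Symbols came from GENCODE M21 for 28339 of 28692 identifiers. Barcodes of at least 1000 UMIs were thinned to 1000 UMIs to set the Ly6c2 class, and unthinned counts were summed per mouse and class. Genes over 1 CPM in at least 2 sums and seen in at least 5% of the barcodes were tested (Ly6c2 left out where it set the classes) with edgeR 4.0.16 (TMM, quasi-likelihood F test, Benjamini-Hochberg FDR of 5% over all tested genes), with DESeq2 1.42.0 and limma 3.58.1 as alternatives. SE is the log2 fold change divided by the root of F. Clusters were cut from a Ward tree on 30 components of 500 variable genes (scanpy 1.11.5), with complement genes left out. Scrublet called 58 doublets, 1.22% of barcodes and 3.26% in DEP 13, which were kept. By rule, all 8 members were named in each comparison (in ranges for class 0), and other complement genes where called in the class contrast (up to 6 a direction). The members and lists were chosen with earlier results of these data known. The main edgeR quasi-likelihood fit of each comparison was checked on counts simulated with a fixed dispersion. The alternative fits were not checked in this way.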

Additional observations from a re-analysis of the deposited data

Results flagged for a closer look

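For 2 genes the DEP difference passed the test of dependence on Ly6c2 class, a call that many alternatives did not keep. The log2 fold change of DEP against PBS in class 2+ minus that in class 0 was -0.82 for C1qa and -0.69 for C1qb, and edgeR's quasi-likelihood test of that difference gave an adjusted p of 0.00147 and 0.0208. Both DEP mice lay below both PBS mice in class 2+. The class 2+ sums held 214 and 67 C1qa UMIs in DEP 11 and DEP 13, against 462 and 396 in PBS 2 and PBS 3, and DEP 13 had 16 barcodes there. Neither gene passed with another random draw for the classes (-0.32 and -0.29, adjusted p = 0.9998 by edgeR for both), with DESeq2, limma voom, the likelihood ratio test, filterByExpr, no gene filter or thinned counts, or without PBS 2 or PBS 3.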

How the results depend on the processing

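The class contrast of the members held under 18 alternatives: 7 were called in all but the fit on barcodes thinned to 1000 UMIs, where C3 fell under the gene filter and 6 were called, and log2 fold changes ran from -2.36 to -1.89 for C1qa and from 1.18 to 1.59 for C3. Over all genes that fit called 308 (174 lower), DESeq2 304 lower, and fits without 1 mouse 706 to 912 (347 to 409 lower). Cd93 lost its call under 1 or more alternatives (adjusted p up to 0.116), and so did Lrp1 and C5ar2.

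No member was called for DEP against PBS under any alternative. Over all barcodes other fits called 4 genes (DESeq2), 8 (likelihood ratio test), 119 (no gene filter) and 7 to 35 without 1 mouse. In class 0 they called 4, 6, 115 and 0 to 9. In class 2+, against 5, they called 3 (DESeq2), 10 (likelihood ratio test), 27 (no gene filter), 1 (RLE scaling, filterByExpr or the study's cell filter), 2 (no lymphoid clusters), 9 (unthinned classes), 0 (thinned counts, or another draw) and 1 to 19 without 1 mouse.

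The interaction called 1 gene with DESeq2, limma voom or another draw, 2 with thinned counts, 8 without the lymphoid clusters and 5 to 30 without 1 mouse. Members called in it were 0 with DESeq2, limma voom, the likelihood ratio test, filterByExpr, no gene filter, thinned counts or another draw, 1 at 2000 UMIs or more or without the lymphoid clusters, and 0 to 3 without 1 mouse: 0 without PBS 2 or PBS 3, 1 without DEP 13, and 3, C1qc among them, without DEP 11. The cause was not tested.

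Uncalled DEP differences (log2) that changed sign were near 0 or in class 2+. In all barcodes C1qa was 0.017 thinned and 0.021 without the lymphoid clusters, C1qc -0.018 with no gene filter, and C3ar1 -0.0013 with DESeq2, -0.0013 with RLE, -0.0014 at 2000 UMIs or more, -0.0071 with filterByExpr and -0.028 with no gene filter. In class 0 C1qa was -0.00017 with DESeq2, -0.00019 with RLE, -0.0069 with filterByExpr, -0.023 with no gene filter and -0.0047 without doublets, C1qb 0.024 with unthinned classes and 0.0034 without the lymphoid clusters, and C1qc -0.0039 with no gene filter. In class 2+ C3 was -0.89 thinned, and another draw gave -0.47 for C3, 0.60 for C3ar1 and -0.11 for Cfp, with interactions of -0.35 for C3 and 0.55 for C3ar1. Without 1 mouse, all barcodes gave -0.11 to 0.10 for C1qa, -0.16 to 0.21 for C1qc, -0.015 to 0.014 for C3ar1 and -0.37 to 0.035 for C5ar1. Class 0 gave -0.11 to 0.12 for C1qa, -0.16 to 0.23 for C1qc and -0.33 to 0.067 for C5ar1. Class 2+ gave -0.30 to 0.48 for C3 and -0.17 to 0.57 for Cfp, and the interaction of C3 was -0.25 to 0.82. The DEP minus PBS difference in the share of barcodes with a C3ar1 UMI, -4.10 percentage points, was 0.969 when thinned, -0.248 without PBS 2 and -7.95 without PBS 3. In 2 alternatives chosen after seeing the data, thinned barcodes without the lymphoid clusters and without these and the monocyte-like cluster, it was 1.43 and 2.88, and the second gave 0.526 for C1qc (-3.47 unthinned). No paired analysis was possible because the DEP and PBS mice share no replicate number. The 16 class 2+ barcodes of DEP 13 limit every class 2+ value.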
